A study of Mus musculus with 20 samples.

Results

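The genes described here are the NF-κB subunits Nfkb2, Rel, Rela and Relb and the feedback regulators Nfkbia, Nfkbiz, Bcl3, Tnfaip3 and Traf1, measured in mouse skin. They were chosen by name, as every probe-set whose single gene symbol in the annotation of the array platform is on a list of 10 genes. The annotation gave probe-sets for 9 of the 10 genes, out of 18194 genes with a single symbol in the whole series, and Nfkb1 is not analysed here because no probe-set carried its symbol alone. The 9 genes had 18 probe-sets, all of which were kept for testing, and 5 of the genes had several probe-sets.

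Full-thickness dorsal skin was hybridised to 20 Affymetrix mouse4302 arrays, 1 array per mouse, in 4 groups of 5. All mice were female C57BL/6 mice, bought at an age of 6 weeks and housed for 1 week before the study began. Naïve mice formed the first group, and the sources used here describe no injection for them. The other groups received recombinant murine IL-23, a cytokine that maintains Th17 cells, as daily intradermal injections of 3 µg into the back from day 1 to day 4. On days 4, 5 and 6 they were injected subcutaneously at a distant site with saline (phosphate buffered, per the methods), with IMO-3100, an antagonist of TLR7 and TLR9, or with IMO-8400, an antagonist of TLR7, TLR8 and TLR9. Each antagonist was given at 15 mg/kg, and the IL-23-injected skin was collected on day 7. The saline group is called IL-23 skin below, and an effect of IL-23 cannot be told apart from that of the injections themselves. The arrays measured a psoriasis-like skin inflammation at a single time and dose of each antagonist, which limits what the groups can show.

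NF-κB is a family of dimeric transcription factors held in the cytoplasm by IκB proteins. Signals from Toll-like receptors, the IL-1 receptor, the IL-17 receptor and tumour necrosis factor activate IκB kinases, the IκB is degraded and the dimer enters the nucleus. In a second, slower route the p100 protein encoded by Nfkb2 is processed and releases dimers that contain RelB. Several of the genes that NF-κB switches on encode parts of the pathway itself or its brakes, among them IκBα (Nfkbia), A20 (Tnfaip3) and the nuclear IκB proteins Bcl-3 and IκBζ (Nfkbiz). In skin the pathway is known from keratinocytes and from infiltrating leukocytes, and IκBζ is known as a mediator of IL-17 responses in keratinocytes.

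Promoter sequences are shown because these genes are classical examples of a pathway that acts on its own members. In the RefSeq promoter table (GRCm38.p6), windows from 250 bases before to 50 bases after the start site were present for 7 of the 10 listed genes, in 10 windows. The κB consensus was searched on both strands, with overlapping matches allowed. It had a match in 7 of the 10 windows and in 5 of the 7 genes (Nfkb2, Rel, Nfkbia, Bcl3 and Tnfaip3), against 4.51% of 32851 windows and 5.14% of 27025 genes in the table. The windows of Rela and Traf1 held no match, and that of Bcl3 held one only after the start site. A match describes these letters and is not a measured binding site. The stretches upstream of the start sites with matches are printed 5′ to 3′ on the strand of the gene, with the matched letters in capitals.
Nfkb2, chr19:46304678-46304736, plus strand: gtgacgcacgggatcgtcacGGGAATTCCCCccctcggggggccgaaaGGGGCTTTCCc
Nfkb2, a second start site, chr19:46305445-46305488, plus strand: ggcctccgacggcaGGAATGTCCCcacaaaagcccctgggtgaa
Nfkb2, a further start site, chr19:46305685-46305734, plus strand: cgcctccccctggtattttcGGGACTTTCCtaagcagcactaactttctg
Rel, chr11:23771031-23771081, minus strand: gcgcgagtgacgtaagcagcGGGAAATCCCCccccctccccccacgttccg
Nfkbia, chr12:55492648-55492696, minus strand: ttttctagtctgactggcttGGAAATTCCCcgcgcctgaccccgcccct
Tnfaip3, chr10:19015411-19015555, minus strand: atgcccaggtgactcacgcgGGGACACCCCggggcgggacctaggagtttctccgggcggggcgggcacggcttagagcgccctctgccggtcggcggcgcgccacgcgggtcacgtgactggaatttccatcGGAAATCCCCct

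Expression values are on the log2 scale, on which a difference of 1 is a FCH of 2, and a value below 3 is near background. A gene was called a DEG where limma gave a FCH over 2 at an FDR below 0.05. One naïve mouse stood apart before any comparison. Naïve replicate 1 had a median correlation of 0.932 with the other naïve arrays over the tested probe-sets, whereas this median lay between 0.972 and 0.993 for the other 19 arrays of their own groups. It had the lowest mean of the T cell markers among all mice (5.92) and the highest mean of the hair follicle keratins (14.0). The counts of genes against naïve skin and the IL-23 change of each gene are therefore given with and without it. Markers of the tissue were present throughout, with means of the 5 keratinocyte markers between 13.8 and 14.3 in every mouse. Markers of leukocytes differed between the groups and are given after the results of the genes.

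IL-23 raised most of the NF-κB genes. Against naïve skin, 7 of the 9 genes were DEGs with higher expression in IL-23 skin (Nfkb2, Rel, Relb, Nfkbiz, Bcl3, Tnfaip3 and Traf1), where 9.02% of the 13740 genes tested were. None of the 9 was a DEG with lower expression, where 8.6% of all genes were, and none was lower at an unadjusted p under 0.05, where 27.6% of all genes were. For 8 of the 9 genes every IL-23 mouse lay above every naïve mouse, a pattern seen for 13.6% of all genes. The median log2 fold change of the 9 genes was 1.36, and that of all genes tested was -0.0064. Without naïve replicate 1 the DEGs were 6 of 9, against 8.7% of all genes, and the gene no longer called at its highest probe-set was Nfkbiz. In bulk skin, more cells of a type and more RNA per cell cannot be told apart, here and in every comparison that follows.

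**Figure D1:**
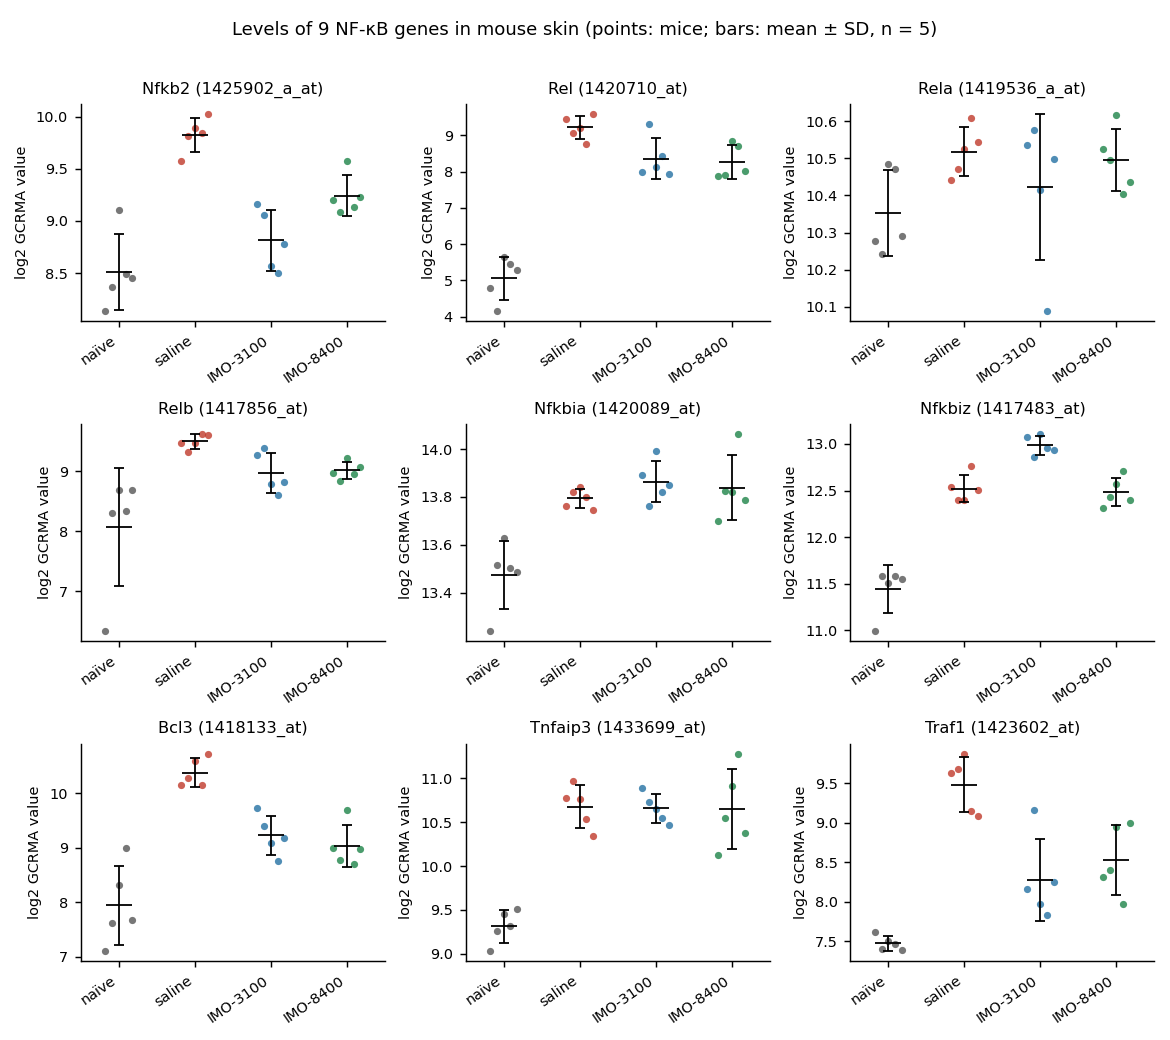
Log2 GCRMA expression values of the 9 NF-κB genes at their highest probe-set in naïve, saline (IL-23), IMO-3100 and IMO-8400 mice. Points are single mice and bars are the mean ± SD of 5 mice. Rel rises from 4.15 to 5.63 in naïve mice to 8.76 to 9.58 in IL-23 mice, and Rela lies between 10.1 and 10.6 in all groups.

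Rel, the c-Rel subunit known from lymphocytes and myeloid cells, showed the widest range of all 9 genes. Its values were 4.15, 4.78, 5.28, 5.44 and 5.63 in naïve mice and 8.76, 9.07, 9.20, 9.46 and 9.58 in IL-23 mice. In the antagonist groups they were 7.92, 7.99, 8.11, 8.44 and 9.30 with IMO-3100 and 7.88, 7.90, 8.02, 8.69 and 8.83 with IMO-8400. All mice given IL-23 lay above all naïve mice, and both antagonist groups overlapped with IL-23 skin. IL-23 raised Rel 17.8-fold (log2 fold change 4.16, SE 0.30, adjusted p = 1.66e-08, limma), and without naïve replicate 1 the log2 fold change was 4.09. Against IL-23 skin the log2 fold change was -0.86 with IMO-3100 (SE 0.30, adjusted p = 0.0405) and -0.95 with IMO-8400 (adjusted p = 0.0245), so that the FDR threshold was passed and the fold threshold was not. Without IMO-3100 replicate 2, the mouse at 9.30, the change with IMO-3100 was -1.10 (adjusted p = 0.00788) and passed both. The FDR call was lost in 8 of the 10 settings that left out 1 mouse of the groups compared with IMO-3100 (adjusted p from 0.0561 to 0.0984) and in 5 of 10 with IMO-8400 (0.0519 to 0.0653). With IMO-3100 it was also lost with no filter (adjusted p = 0.0720) and under quantile normalization (adjusted p = 0.0555). Both antagonist groups remained DEGs against naïve skin, with log2 fold changes of 3.30 and 3.21 (3.23 and 3.14 without naïve replicate 1).

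Nfkb2 encodes p100 and the p52 subunit made from it, and it was a DEG with IMO-3100. At its highest probe-set (1425902_a_at) naïve mice had 8.14, 8.36, 8.45, 8.49 and 9.11, and IL-23 mice 9.57, 9.81, 9.84, 9.89 and 10.02. With IMO-3100 the values were 8.50, 8.57, 8.78, 9.05 and 9.16, and with IMO-8400 they were 9.08, 9.14, 9.20, 9.23 and 9.58. The IMO-3100 mice all lay below the IL-23 mice and within or just above the naïve range. The IMO-8400 mice ran from just below the highest naïve mouse to the level of the lowest IL-23 mouse, and the antagonist groups overlapped. IL-23 raised Nfkb2 2.49-fold (log2 fold change 1.32, SE 0.16, adjusted p = 7.41e-06; 1.22 without naïve replicate 1). IMO-3100 lowered it 2.02-fold (log2 fold change -1.01, SE 0.16, adjusted p = 0.000424), just past the fold threshold, and leaving out single mice gave values from -1.10 to -0.93, of which 4 fell short of that threshold with the FDR still passed. With IMO-8400 the change was -0.58 (SE 0.16, adjusted p = 0.0138). The other probe-set (1429128_x_at), of a class that can cross-hybridise, changed less and passed no threshold: its log2 fold change was 0.40 with IL-23 (adjusted p = 0.109), -0.47 with IMO-3100 (adjusted p = 0.0899) and 0.10 with IMO-8400 (adjusted p = 0.759).

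Relb encodes the RelB subunit, the usual partner of p52. Naïve mice had 6.33, 8.30, 8.33, 8.68 and 8.69, the lowest being naïve replicate 1, and IL-23 mice had 9.32, 9.48, 9.48, 9.61 and 9.62. Values were 8.61, 8.78, 8.82, 9.28 and 9.39 with IMO-3100 and 8.84, 8.97, 8.98, 9.08 and 9.22 with IMO-8400. All IMO-8400 mice lay below all IL-23 mice, and 1 IMO-3100 mouse reached into the IL-23 range. The rise with IL-23 was 2.70-fold (log2 fold change 1.43, SE 0.32, adjusted p = 0.00142) and was 2.00-fold without naïve replicate 1 (log2 fold change 1.00, SE 0.15, adjusted p = 3.49e-05), at the fold threshold. Against IL-23 skin the log2 fold change was -0.52 with IMO-3100 (adjusted p = 0.236) and -0.48 with IMO-8400 (adjusted p = 0.270). The spread in this test is shared by all groups and includes naïve replicate 1; without that mouse the same changes had adjusted p = 0.00770 and adjusted p = 0.0117, still below the fold threshold.

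Rela encodes p65, the subunit of the most common NF-κB dimer. Its values lay between 10.24 and 10.48 in naïve, 10.44 and 10.61 in IL-23, 10.09 and 10.58 in IMO-3100 and 10.40 and 10.62 in IMO-8400 skin, and all groups overlapped. The log2 fold change with IL-23 was 0.17 (95% interval -0.02 to 0.36, adjusted p = 0.145) and 0.15 without naïve replicate 1. With IMO-3100 it was -0.10 (-0.29 to 0.09, adjusted p = 0.478) and with IMO-8400 -0.02 (-0.21 to 0.17, adjusted p = 0.896) against IL-23 skin, so that each interval lay well inside a FCH of 2.

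Bcl3, whose protein Bcl-3 binds p50 and p52 dimers in the nucleus, was the only gene of the 9 called in both antagonist groups. Its values were 7.11, 7.63, 7.68, 8.31 and 8.99 in naïve mice and 10.14, 10.15, 10.28, 10.60 and 10.72 in IL-23 mice. With IMO-3100 they were 8.76, 9.08, 9.18, 9.41 and 9.72, and with IMO-8400 8.70, 8.78, 8.98, 9.00 and 9.69. Every antagonist mouse lay below every IL-23 mouse, and the lowest of them overlapped with the highest naïve mouse. IL-23 raised Bcl3 5.40-fold (log2 fold change 2.43, SE 0.28, adjusted p = 3.23e-06; 2.22 without naïve replicate 1). It was 2.22-fold lower with IMO-3100 (log2 fold change -1.15, SE 0.28, adjusted p = 0.00644) and 2.55-fold lower with IMO-8400 (log2 fold change -1.35, SE 0.28, adjusted p = 0.00207), and it stayed a DEG when any 1 mouse of the groups compared was left out.

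Traf1, an adaptor of the tumour necrosis factor receptor family and a well known NF-κB target, followed a similar course. At its highest probe-set (1423602_at) the values were 7.39, 7.40, 7.46, 7.50 and 7.62 in naïve mice and 9.09, 9.15, 9.63, 9.67 and 9.87 in IL-23 mice. With IMO-3100 they were 7.83, 7.97, 8.16, 8.24 and 9.16, and with IMO-8400 7.96, 8.32, 8.40, 8.94 and 9.00. The naïve mice lay close together and below all others, and 1 IMO-3100 mouse reached the lowest IL-23 mice. IL-23 raised Traf1 4.02-fold (log2 fold change 2.01, SE 0.23, adjusted p = 3.39e-06; 2.04 without naïve replicate 1). IMO-3100 lowered it 2.31-fold (log2 fold change -1.21, SE 0.23, adjusted p = 0.00139), and the change with IMO-8400 was -0.96 (SE 0.23, adjusted p = 0.00572), which is 1.94-fold and short of the fold threshold. At the other probe-set (1445452_at) the log2 fold change was 0.90 with IL-23 (adjusted p = 0.00674), -0.75 with IMO-3100 (adjusted p = 0.0316) and -0.28 with IMO-8400 (adjusted p = 0.432), the first being 0.78 without naïve replicate 1.

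Tnfaip3, which encodes the ubiquitin-editing enzyme A20 that shuts off NF-κB signalling, rose with IL-23 and had near-equal means with either antagonist. At its highest probe-set (1433699_at) naïve mice had 9.04, 9.26, 9.32, 9.45 and 9.51, and IL-23 mice 10.34, 10.54, 10.77, 10.78 and 10.97. With IMO-3100 the values were 10.46, 10.54, 10.65, 10.73 and 10.89, and with IMO-8400 10.13, 10.37, 10.55, 10.91 and 11.28. The 3 groups given IL-23 overlapped fully and all lay above naïve skin. The rise was 2.57-fold (log2 fold change 1.36, SE 0.18, adjusted p = 1.07e-05; 1.29 without naïve replicate 1). Against IL-23 skin the log2 fold change was -0.02 with IMO-3100 (95% interval -0.39 to 0.35, adjusted p = 0.969) and -0.03 with IMO-8400 (-0.40 to 0.34, adjusted p = 0.937). The second probe-set for Tnfaip3 (1450829_at) was near background in all 20 mice, with a highest value of 2.41, and no fold change is given for it.

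Nfkbia encodes IκBα, the inhibitor that is resynthesised after each activation of NF-κB. Its values lay between 11.7 and 14.1 over its 5 probe-sets. At the highest (1420089_at) naïve mice had 13.24, 13.49, 13.50, 13.52 and 13.63, and IL-23 mice 13.75, 13.76, 13.80, 13.82 and 13.84, so that the groups did not overlap. The log2 fold change with IL-23 was 0.32 (SE 0.08, adjusted p = 0.00463), which passed the FDR and not the fold threshold. It was 0.26 without naïve replicate 1 (adjusted p = 0.00652), and with the mean of the hair follicle keratins as a covariate it was 0.25 and did not pass (adjusted p = 0.129). Over the other probe-sets it was 0.45, 0.73, 0.86 and 1.14, all with an FDR under 0.05 and all without overlap, and it was a DEG at 1 of them alone (1448306_at, 2.21-fold, adjusted p = 4.15e-05; 2.02-fold without naïve replicate 1). There the values were 11.67 to 12.82 in naïve and 13.15 to 13.46 in IL-23 skin. Against IL-23 skin the changes over the 5 probe-sets ran from -0.20 to 0.07 with IMO-3100 and from -0.12 to 0.05 with IMO-8400, and none passed the FDR threshold.

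Nfkbiz encodes IκBζ, a nuclear cofactor needed for a set of secondary NF-κB targets. Its 3 probe-sets agreed on the rise with IL-23 and differed on the antagonists. At the highest (1417483_at) the values were 10.99, 11.51, 11.55, 11.58 and 11.59 in naïve mice and 12.40, 12.40, 12.50, 12.54 and 12.77 in IL-23 mice. With IMO-3100 they were 12.85, 12.94, 12.96, 13.08 and 13.11, above every IL-23 mouse, and with IMO-8400 12.31, 12.40, 12.43, 12.57 and 12.71, within or just below the IL-23 range. IL-23 raised Nfkbiz 2.11-fold here (log2 fold change 1.08, SE 0.12, adjusted p = 1.42e-06), and 1.95-fold without naïve replicate 1 (log2 fold change 0.97), short of the fold threshold. The change with IMO-3100 against IL-23 skin was 0.46 (SE 0.12, adjusted p = 0.00701), a higher value, and that with IMO-8400 was -0.04 (adjusted p = 0.852).

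A second probe-set for Nfkbiz (1457404_at) was also highest with IMO-3100, with no overlap with the other groups. Its values were 10.27 to 11.04 in naïve, 11.14 to 11.34 in IL-23, 11.70 to 12.21 in IMO-3100 and 11.25 to 11.53 in IMO-8400 skin. The log2 fold change was 0.46 with IL-23 (adjusted p = 0.00604; 0.33 without naïve replicate 1), 0.69 with IMO-3100 against IL-23 (adjusted p = 0.000826) and 0.14 with IMO-8400 (adjusted p = 0.409). The third probe-set for Nfkbiz (1448728_a_at) had the largest rise with IL-23, 5.11-fold, from 8.00 to 9.20 in naïve to 10.74 to 11.08 in IL-23 skin (log2 fold change 2.35, SE 0.18, adjusted p = 2.94e-08). It stayed a DEG there without naïve replicate 1 (4.61-fold, adjusted p = 4.06e-08). There the antagonist changes were lower values that did not pass, -0.36 with IMO-3100 (adjusted p = 0.144) and -0.40 with IMO-8400 (adjusted p = 0.105). The higher value of Nfkbiz with IMO-3100 was thus measured at 2 of its 3 probe-sets. Which transcripts the 3 probe-sets read was not examined.

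**Figure D2:**
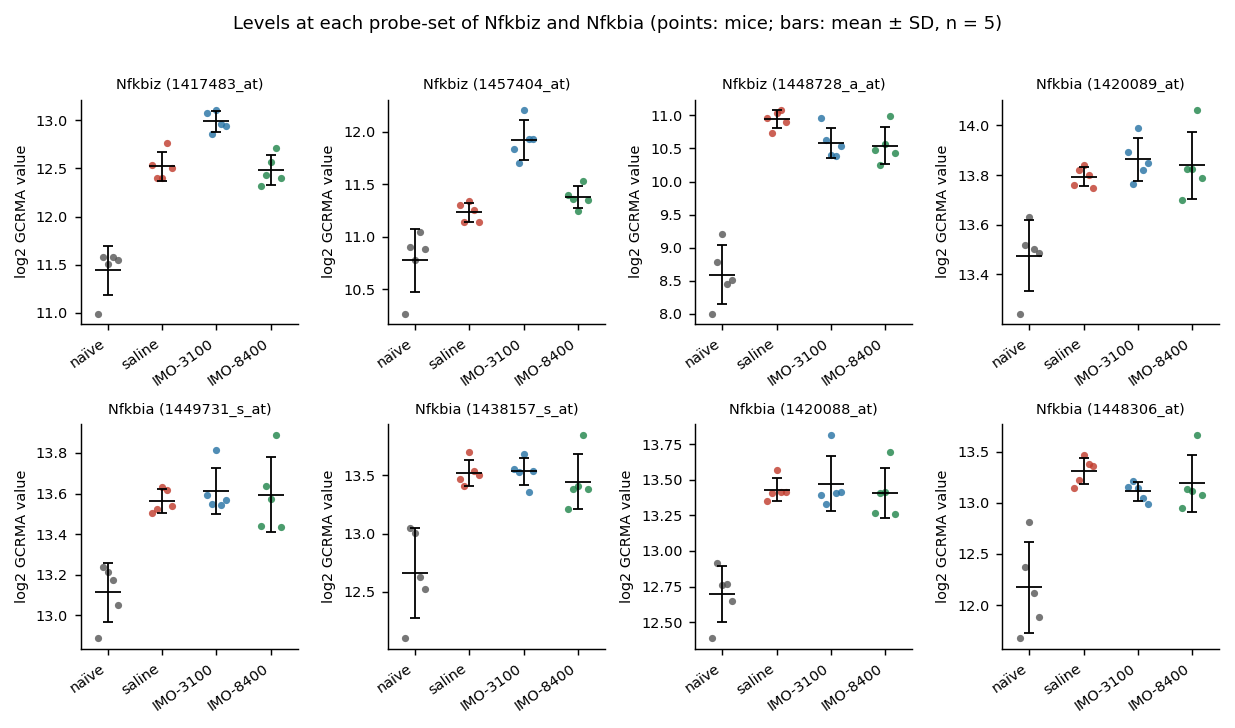
Log2 GCRMA expression values at each of the 3 probe-sets of Nfkbiz and the 5 of Nfkbia, in naïve, saline (IL-23), IMO-3100 and IMO-8400 mice. Points are single mice and bars are the mean ± SD of 5 mice. The first and second Nfkbiz probe-sets are highest with IMO-3100, whereas at the third all 3 groups given IL-23 overlap.

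The comparison of the antagonists with saline asks whether blocking the Toll-like receptors alters the IL-23 response of these genes. With IMO-3100, 3 of the 9 genes were DEGs with lower expression than IL-23 skin (Nfkb2, Bcl3 and Traf1), where 4.66% of all genes were. By the FDR alone 4 were lower, Rel being the fourth, where 17.8% of all genes were, and 1 was higher (Nfkbiz), where 12.2% of all genes were. With IMO-8400, Bcl3 was the 1 DEG with lower expression, where 4.2% of all genes were, and the same 4 genes as with IMO-3100 were lower by the FDR alone, where 14.4% of all genes were. Without naïve replicate 1 in the fit, Relb was lower by the FDR in both groups as well (adjusted p = 0.00770 and adjusted p = 0.0117, limma). In limma no member was a DEG with higher expression in either group, where 2.68% of all genes were with IMO-3100 and 4.62% with IMO-8400. At an unadjusted p under 0.05 the higher genes numbered 1 and 0, where 17.7% and 22.4% of all genes were. The median log2 fold change of the 9 genes was -0.52 with IMO-3100 and -0.48 with IMO-8400, against -0.02 and 0.0042 over all genes. These comparisons share the IL-23 mice, so the values of both groups are not independent of each other.

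**Figure D3:**
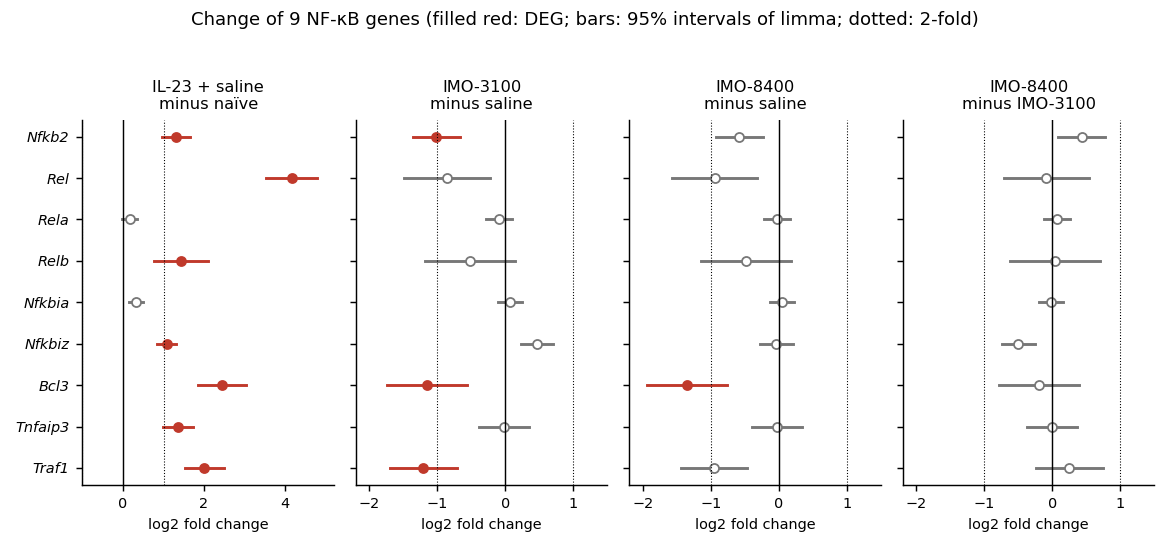
Log2 fold change of each NF-κB gene at its highest probe-set in 4 comparisons, with the 95% interval of limma as bars and filled red points for DEGs. Dotted lines mark a FCH of 2. With IL-23, 7 genes are called higher; 3 are called lower with IMO-3100, 1 with IMO-8400 and none between the antagonists.

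Between the antagonists, given at the same dose and times, 1 pair of compounds was compared. They differ in their stated targets, IMO-8400 being also directed at TLR8. No NF-κB gene was a DEG between them, where 0.524% of all genes were, and 1 of the 9 passed the FDR alone, where 3.79% of all genes did. That gene was Nfkbiz, 1.42-fold lower with IMO-8400 than with IMO-3100 at its highest probe-set (log2 fold change -0.50, 95% interval -0.74 to -0.26, adjusted p = 0.0252), with no overlap between the groups. The FDR call was lost in 6 of the 10 settings that left out 1 antagonist mouse (adjusted p from 0.0511 to 0.0753). It was 1.46-fold lower at 1457404_at (-0.54, interval -0.80 to -0.29, adjusted p = 0.0239), where the call was lost in 6 of 10 settings as well (0.0524 to 0.0764), and differed by -0.04 at 1448728_a_at (-0.42 to 0.34, adjusted p = 0.966).

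Nfkb2 was 1.35-fold higher with IMO-8400 (log2 fold change 0.43, interval 0.08 to 0.78), which did not pass after adjustment (adjusted p = 0.139) and passed with array weights (0.49, adjusted p = 0.0150). At 1429128_x_at the log2 fold change of Nfkb2 was 0.57 (0.15 to 0.99) and did not pass either (adjusted p = 0.109, limma). The other members gave intervals that spanned 0. The log2 fold change of IMO-8400 against IMO-3100 was -0.09 for Rel (-0.72 to 0.54), 0.04 for Relb (-0.62 to 0.71) and 0.07 for Rela (-0.12 to 0.26). For the regulators it was -0.20 for Bcl3 (-0.79 to 0.39), 0.25 for Traf1 (-0.24 to 0.74), -0.01 for Tnfaip3 (-0.38 to 0.36) and -0.02 for Nfkbia (-0.20 to 0.15). At 1445452_at it was 0.47 for Traf1 (-0.05 to 0.99). A FCH of 2 between the compounds lies outside each of these intervals, which do not exclude smaller differences.

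The antagonist groups were also compared with naïve skin. With IMO-3100, 4 of the 9 were DEGs higher than in naïve skin (Rel, Nfkbiz, Bcl3 and Tnfaip3), where 5.76% of all genes were. The same 4 were called without naïve replicate 1, where 4.66% of all genes were. With IMO-8400, 5 were (Rel, Nfkbiz, Bcl3, Tnfaip3 and Traf1), where 4.77% of all genes were. Without naïve replicate 1 these were 3 (Rel, Tnfaip3 and Traf1), where 3.88% of all genes were. At its highest probe-set Nfkbiz then had a log2 fold change of 0.93, and Bcl3 had 0.88. At 1448728_a_at Nfkbiz stayed a DEG without that mouse (1.80, adjusted p = 1.53e-06, limma). Nfkb2 differed from naïve skin by 0.30 with IMO-3100 (adjusted p = 0.180) and by 0.73 with IMO-8400 (adjusted p = 0.00559), and by 0.21 and 0.64 without naïve replicate 1.

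The position of each antagonist mouse between the naïve mean and the IL-23 mean gives the share of the rise that was left. The genes spread widely on this measure. For Nfkb2 the share left was 23.0% ± 22.2 (SD, n = 5) with IMO-3100 and 55.7% ± 14.7 with IMO-8400. For Traf1 it was 39.9% ± 26.0 and 52.4% ± 21.9, and for Bcl3 52.8% ± 14.8 and 44.5% ± 16.0. Relb had 63.4% ± 23.5 and 66.3% ± 9.93 left, and Rel 79.3% ± 13.7 and 77.2% ± 11.0. For Tnfaip3 the shares were 98.4% ± 12.3 and 97.8% ± 33.3. For Nfkbiz they were 143% ± 9.63 and 96.5% ± 14.3 at the highest probe-set, but 84.5% ± 9.85 and 82.9% ± 11.7 at the probe-set with the largest rise. At 1457404_at, also of Nfkbiz, they were 251% ± 40.9 and 132% ± 22.8. The second probe-set for Traf1 (1445452_at) gave 16.6% ± 13.4 and 69.2% ± 42.3. That for Nfkb2 (1429128_x_at), whose rise passed no threshold, gave -16.8% ± 105 and 125% ± 67.1. At the highest probe-sets, the mean for Relb moved most among these genes when naïve replicate 1 was left out, to 47.6% and 51.8%. That for Nfkb2 became 17.1% and 52.3%, and that for Bcl3 48.3% and 39.3%. The shares of Nfkbia rest on a small rise and those of Rela on a rise that did not pass the test, so they rank with neither group. These shares were not tested against each other.

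**Figure D4:**
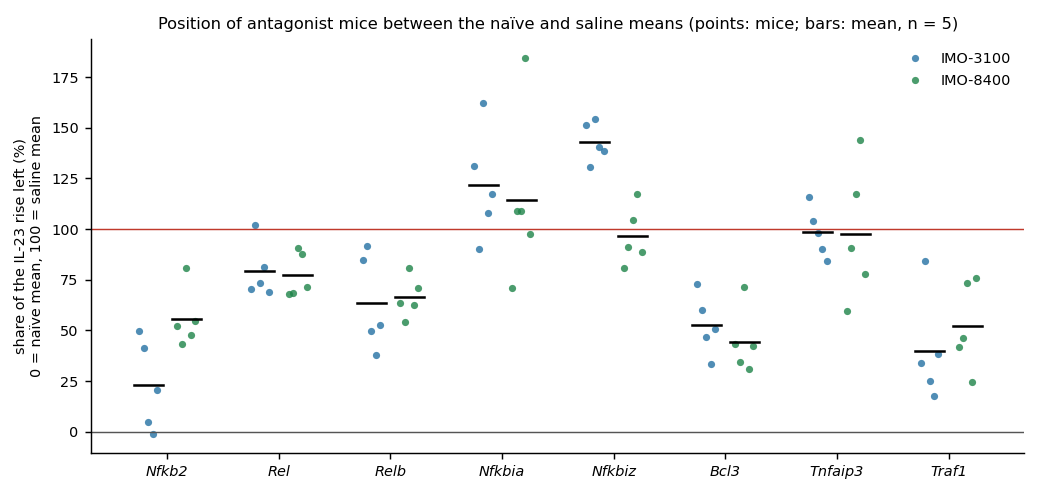
Share of the IL-23 rise left in each antagonist mouse, in percent, for 8 genes at their highest probe-set. Their rise passed the FDR threshold. On the log2 scale, 0 is the naïve mean and 100 the mean of the saline (IL-23) group. Points are mice, bars are means of 5 mice. Nfkb2 with IMO-3100 is lowest (23.0%), and Nfkbiz with IMO-3100 lies above 100% in all 5 mice.

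Other genes of the pathway are described by lists, given with the number of members that were DEGs. Among all 13740 genes, 9.02% were DEGs higher (8.7% without naïve replicate 1) and 8.6% lower in IL-23 than in naïve skin. Against IL-23 skin 4.66% were DEGs lower with IMO-3100 and 4.2% with IMO-8400. The same shares apply to the counts of targets and cell markers below. Of the 3 other IκB genes tested, 2 rose with IL-23: Nfkbid, which encodes the nuclear IκBNS (log2 fold change 3.23, adjusted p = 1.86e-06, with 1 naïve value near background), and Nfkbie, which encodes IκBε (1.85, adjusted p = 4.98e-05). Nfkbid was 2.40-fold lower with IMO-8400 (log2 fold change -1.27, adjusted p = 0.0129). The means of Nfkbid were 7.45 in IL-23, 6.53 in IMO-3100 and 6.19 in IMO-8400 skin. Against IL-23 skin none of the 3 IκB genes was a DEG with IMO-3100. By the FDR alone 2 of the 3 were lower with IMO-3100, where 17.8% of all genes were. With IMO-8400 all 3 were, where 14.4% of all genes were. Among the 5 IκB kinase genes tested, Ikbke (1.90, adjusted p = 1.76e-05) and Map3k14, which encodes the NIK kinase of the p100 route (1.16, adjusted p = 0.00461), rose with IL-23, and Ikbke alone was a DEG without naïve replicate 1. No kinase gene was a DEG with either antagonist against IL-23 skin. With each, 1 was higher at an unadjusted p under 0.05, where 17.7% and 22.4% of all genes were, and that 1 also passed the FDR.

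Of 8 partners of A20 and other brakes, only Zc3h12a, which encodes the RNase Regnase-1, was a DEG with IL-23 (log2 fold change 2.31, adjusted p = 1.07e-07). Of 7 TRAF and cIAP genes it was only Birc3, which encodes cIAP2 (1.52, adjusted p = 1.30e-05). Among 10 adaptors and kinases of the receptors, Irak2 (1.42, adjusted p = 0.00366), Myd88 (1.32, adjusted p = 1.77e-05) and Irak3 (1.20, adjusted p = 4.00e-05) rose, 2 of the 10 without naïve replicate 1. Myd88, the adaptor shared by TLR7, TLR8 and TLR9, was 2.05-fold lower with IMO-8400 (log2 fold change -1.04, adjusted p = 0.000559), and with IMO-3100 its change was -0.66 (adjusted p = 0.0124). No other gene of these 3 lists was a DEG in either antagonist group against IL-23 skin. The 4 genes of the CARD, BCL10 and MALT1 complexes tested held no DEG with IL-23 or in either antagonist group against IL-23 skin.

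The list of classical NF-κB targets held the most DEGs of these lists. Of 26 tested, 19 rose with IL-23 and none was lower, with a median log2 fold change of 1.99, and 14 rose without naïve replicate 1 (median 1.51). The largest changes were those of the chemokine Cxcl2 (8.05, adjusted p = 1.36e-09, with 3 of 5 naïve values near background), the acute phase gene Saa3 (7.78, adjusted p = 6.25e-12) and the chemokine Cxcl1 (6.77, adjusted p = 7.53e-08, with 1 naïve value near background). With IMO-3100, 10 of the 26 were lower than IL-23 skin and none was higher (median -0.87), and with IMO-8400, 9 were lower and none was higher (median -0.96). Il6, at a mean of 8.65 in IL-23 skin, was near background in all mice of both antagonist groups, at least 50.3-fold lower (adjusted p = 1.61e-09 with IMO-3100 and adjusted p = 2.14e-09 with IMO-8400). Csf3 was likewise near background with both, at least 5.87-fold lower, although 1 IL-23 mouse was near background too (adjusted p = 0.00297 and adjusted p = 0.00270). Cxcl1 was 15.4-fold lower with IMO-3100 (adjusted p = 0.000153) and Il1b 12.1-fold lower with IMO-8400 (adjusted p = 2.58e-06). Both genes were DEGs lower with each antagonist. Against naïve skin 12 of the 26 targets were DEGs higher with IMO-3100 and 10 with IMO-8400, where 5.76% and 4.77% of all genes were. Without naïve replicate 1 these were 11 and 7, where 4.66% and 3.88% of all genes were. With all mice the largest of these log2 fold changes were 7.60 and 7.46 for Saa3, 5.70 and 5.16 for Cxcl2 and 4.75 and 4.88 for Ccl5. Between the antagonists none of the genes in any of these lists was a DEG in limma. At an unadjusted p under 0.05, 2 of the 26 targets were higher with IMO-8400 and 1 was lower, where 15% and 8.14% of all genes were.

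Markers of T cells and neutrophils were higher with IL-23 and lower with the antagonists, whereas other leukocyte markers were mostly not called with the antagonists. Of the 7 T cell markers tested, 6 were higher in IL-23 than in naïve skin (5 without naïve replicate 1), and 4 were lower with IMO-3100 and 2 with IMO-8400 than in IL-23 skin. Their mean per mouse lay between 5.92 and 7.87 in naïve, 8.87 and 9.43 in IL-23, 7.89 and 8.40 in IMO-3100 and 8.12 and 8.79 in IMO-8400 skin, and none of the 7 was near background in a whole group. All 3 neutrophil markers were higher with IL-23, with means of 2.76 to 4.73 in naïve and 7.71 to 9.12 in IL-23 skin. With the antagonists 2 and 3 of them were lower, at 5.54 to 6.11 and 5.03 to 6.02, and Mmp8 was near background in naïve and IMO-3100 skin. Of 8 markers of monocytes, macrophages and dendritic cells, 5 were higher with IL-23 and 1 was lower with each antagonist, with means of 9.03 to 11.7, 12.1 to 12.5, 12.2 to 12.4 and 11.2 to 12.0 in the order of groups above.

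Of the 3 general leukocyte markers, 2 were higher with IL-23 and none without naïve replicate 1, and none was called with either antagonist against IL-23 skin (median log2 fold change 0.08 with IMO-3100 and -0.40 with IMO-8400). Their mean per mouse lay between 13.6 and 13.9 in IL-23, 13.7 and 13.9 in IMO-3100 and 13.3 and 13.5 in IMO-8400 skin. Every IMO-8400 mouse thus lay below every IL-23 mouse, as it did for the mean of the monocyte, macrophage and dendritic cell markers. The IMO-3100 mice overlapped with IL-23 skin on both means. The 2 B cell markers tested were higher with IL-23 and not called with either antagonist, whereas Cd79a was near background in all groups. In contrast, none of the 5 keratinocyte markers was a DEG in any of these comparisons. The 8 hair follicle keratins, 5 melanocyte genes and 3 adipocyte genes were all lower in IL-23 than in naïve skin. The hair follicle means ran from 3.03 to 14.0 among naïve mice, from 2.12 to 2.29 in IL-23 skin and to 7.68 in IMO-8400 replicate 5. With the antagonists some of the other tissue markers were higher than in IL-23 skin. The adipocyte gene Adipoq was 2.05-fold higher with IMO-3100 (adjusted p = 0.000536) and 2.14-fold higher with IMO-8400 (adjusted p = 0.000305), with 2 of the 3 adipocyte genes past the FDR in each. The muscle myosin gene Myh4 was 2.41-fold higher with IMO-8400 (adjusted p = 0.00242, limma). There 4 of 5 skeletal muscle genes passed the FDR, and none did with IMO-3100. Of all genes, 2.68% were DEGs higher with IMO-3100 and 4.62% with IMO-8400, and 12.2% were higher by the FDR alone with IMO-3100. With IMO-8400, 4 of 5 muscle and 2 of 3 adipocyte genes were higher at an unadjusted p under 0.05, where 22.4% of all genes were. The part of these cell types in the changes of the NF-κB genes was not tested. With the mean of the hair keratins as a covariate, the IL-23 change of Relb was 0.76 (adjusted p = 0.170) and that of Nfkbiz 0.89 (adjusted p = 0.000623), and both were then no longer DEGs.

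For Rel, the gene with the widest range, the 5 genes with the most similar group means were sought among all tested genes, by the Euclidean distance between the 4 means after centring. They were Ms4a4b (distance 0.312), B430306N03Rik (0.405), Ankrd66 (0.409), Apoc2 (0.448) and Slamf7 (0.570). Ms4a4b, a membrane protein gene known from T cells, had means of 8.60 in naïve, 12.6 in IL-23, 11.6 in IMO-3100 and 11.4 in IMO-8400 skin. The choice depended on the naïve mice, since 1 of the 5 remained among the nearest genes without naïve replicate 1, which was Ankrd66.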

How the data were processed

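Total RNA of skin from 20 mice was hybridised to Affymetrix mouse4302 arrays, 1 array per mouse. The authors deposited GCRMA expression values on the log2 scale, and these log2 values were used as they stood. No GCRMA version was given in the sources, and the table holds no detection calls. Its lowest value was 2.02 and its highest 15.8, and array medians lay between 6.086 and 6.286. Groups were taken from the treatment label, and animal and dose details from the methods. The record of the series speaks of 2 doses of 1 antagonist, whereas the sample labels name 2 compounds. The number of arrays limits the precision. The labels give neither a batch nor a pairing.

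The platform annotation named 1 symbol for 34958 of 45101 probe-sets, several for 932 and none for 9211. Of the single symbols 34754 were matched by Entrez identifier and none changed. Following the methods, probe-sets were tested where their SD exceeded 0.1 and 3 or more arrays had values above 2. This left 30960 probe-sets, and the condition on values above 2 removed none. The 4 group means were estimated with lmFit and eBayes of limma 3.58.1 under R 4.3.3. The Benjamini-Hochberg adjustment covered every tested probe-set, and DEGs have an FDR under 0.05 and a FCH over 2. Genes were counted at the probe-set with the highest mean over the 20 arrays (13740 genes), and intervals are 95% intervals of limma. Where all 5 values of a group were below 3 it was called near background, and folds against such a group are lower bounds with its values raised to 3. The fit was tested on simulated data.

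All members were named at every probe-set. Up to 3 DEGs of largest change were named per pathway list with IL-23 and with each antagonist against IL-23 skin. Against naïve skin the DEGs of the antagonist groups were named for the classical targets alone. The values of Myd88 and Nfkbid with IMO-3100, Mmp8, Cd79a, Adipoq and Myh4 fall outside these rules. They were picked once their values had been seen. The members and lists were chosen with earlier results of these data known. Listed genes without a tested probe-set (among them Chuk, Tnip3, Traf3, Ripk1, Irak1, Irak4, Tab2, Card9, Il12b, Bcl2a1a, Bcl2a1b and Bcl2a1d) were left out. The marker lists for fibroblasts, endothelium and skeletal muscle were computed as well: 0 of 5, 0 of 4 and 1 of 5 genes were DEGs with IL-23, the 1 being lower. Without naïve replicate 1 these counts were 0, 1 and 2, all lower. At an unadjusted p under 0.05, 2, 1 and 4 genes were lower and 0, 1 and 0 higher, where 27.6% and 27.2% of all genes were. The alternatives tried were a stricter filter or none, a floor of 4, scaling to the 75th percentile, quantile normalization, fits of 2 groups, a variance prior with trend, array weights, a hair covariate, probe-set means and leaving out mice. The lists, shares and nearest genes without naïve replicate 1, and leaving out single mice at 1457404_at, were added after seeing the data. Promoters came from the RefSeq table.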

Additional observations from a re-analysis of the deposited data

Results flagged for a closer look

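In 8 of 71 groups of 5 values with any spread, the highest or lowest mouse lay far from the others by Dixon's criterion, which chance passes in about 1 group in 20. Naïve replicate 1 gave 2 of them, the lowest Relb value (6.33, the other naïve mice 8.30 to 8.69) and the lowest Nfkbiz value at 1417483_at (10.99, the others 11.51 to 11.59). For Nfkbia, IMO-3100 replicate 3 was highest at 1449731_s_at (13.81, the others 13.54 to 13.59) and at 1420088_at (13.82, the others 13.33 to 13.42). Also for Nfkbia, saline replicate 3 was highest at 1420088_at (13.57, the others 13.35 to 13.41) and IMO-8400 replicate 4 at 1448306_at (13.67, the others 12.95 to 13.14). For Nfkb2 at 1429128_x_at, IMO-8400 replicate 5 was lowest (7.51, the others 8.05 to 8.16). For Tnfaip3 at 1450829_at, naïve replicate 3 was highest (2.021, the others 2.019), a difference within the background.

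The effect against saline differed between the antagonists for Nfkbiz, by -0.50 at 1417483_at and by -0.54 at 1457404_at on the log2 scale, IMO-8400 being lower (adjusted p = 0.0252 and adjusted p = 0.0239, limma). All IMO-3100 mice lay above all IMO-8400 mice at both probe-sets. The FDR call was lost in 6 of the 10 settings that left out 1 antagonist mouse at each (adjusted p from 0.0511 to 0.0753 and from 0.0524 to 0.0764). No explanation was tested.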

How the results depend on the processing

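The count of genes past the threshold was recomputed under each alternative. Counts with IL-23 against naïve skin ranged from 6 to 7 higher when single mice were left out. Relb and Nfkbiz both lost this call with the hair covariate, and also without naïve replicates 1 and 2 together. Lower genes with IMO-3100 against saline ranged from 2 to 4 and were 1 (Bcl3) with the mean of all probe-sets of a gene. With IMO-8400 against saline they ranged from 1 to 3 and were 4 by the FDR alone, which also gave 1 higher with IMO-3100 and 1 lower with IMO-8400 than with IMO-3100, both Nfkbiz. Against naïve skin, higher genes with IMO-3100 ranged from 4 to 5 and were 7 by the FDR alone. With IMO-8400 they ranged from 3 to 6, were 8 by the FDR alone, and were 3 with array weights, the hair covariate, the mean of probe-sets, and without naïve replicates 1 and 2. All other counts were 0 in every leave-one-out setting or within 1.5 times the value reported.

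Calls lost at the fold threshold with the FDR kept were Nfkb2 with IMO-3100 (-0.97 with a common 75th percentile, -0.96 with quantile normalization) and Nfkbiz with IL-23 (0.96 with array weights, 0.89 with the hair covariate, 0.97 without naïve replicate 1, 0.98 without naïve replicates 1 and 2). Relb with IL-23 was 0.93 without naïve replicates 1 and 2 and lost both thresholds with the hair covariate. With IMO-8400 against saline Traf1 passed both thresholds in 4 leave-one-out settings (range -1.07 to -0.82) and Rel in 3 (-1.09 to -0.85). Rel lost its FDR call in 5 others with IMO-8400 (adjusted p from 0.0519 to 0.0653) and in 8 of 10 with IMO-3100, and Nfkbiz between the antagonists in 6 of 10. Nfkb2 between the antagonists gained one with array weights (0.49, adjusted p = 0.0150), and Nfkbia with IL-23 lost it with the hair covariate (0.25, adjusted p = 0.129). Relb against saline passed the FDR with array weights, in fits of 2 groups and without naïve replicates 1 and 2, for both antagonists. The cause was not tested.

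Signs turned only in changes that passed no threshold. Between the antagonists these were Nfkbia (0.016) and Relb (-0.0060) under quantile normalization, and Tnfaip3 with array weights (0.0028) and the hair covariate (0.035). Against saline they were Tnfaip3 with IMO-3100 (0.024 at a common 75th percentile, 0.0091 under quantile normalization) and with IMO-8400 (0.013 with the hair covariate). When single mice were left out, the change between antagonists ranged from -0.080 to 0.010 for Nfkbia, -0.23 to 0.15 for Rel, -0.011 to 0.11 for Rela, -0.050 to 0.14 for Relb and -0.17 to 0.12 for Tnfaip3. Against saline with IMO-8400 it ranged from -0.011 to 0.080 for Nfkbia, -0.094 to 0.023 for Nfkbiz, -0.053 to 0.00039 for Rela and -0.19 to 0.10 for Tnfaip3, and with IMO-3100 from -0.11 to 0.052 for Tnfaip3.

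No paired analysis was possible because the labels give the mice no shared numbers. With 5 mice a group, changes near a FCH of 2 fall on either side of the threshold as single mice are left out. The table holds no detection calls, so values near background carry no order.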
